A study of Mus musculus with 15 samples.

Results

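The proteasome is the multi-subunit protease that degrades proteins tagged with ubiquitin, and its genes were followed here through ureteral obstruction in the mouse kidney. Members were taken by name. They are the probe sets of a single gene whose platform symbol begins with Psma, Psmb, Psmc, Psmd, Psme or Psmf and a digit. This gave 95 probe sets of 45 genes, out of 34945 single-gene probe sets of 18193 genes. Psmc3ip, a meiotic recombination factor, and Psme3ip1, a partner of the activator Psme3, match these letters but are not proteasome subunits, and both are counted as members. The immunoproteasome genes are Psmb8, Psmb9, Psmb10 and Psme1, with 5 probe sets. The probe set of Psme2 is shared with a second gene, so Psme2 is no member and no value is given for it. The constitutive set holds the other 32 genes of the 20S core and the 19S particle, with 68 probe sets. It includes Psma8, known from testis, and leaves out Psmb11, known from thymus.

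All mice carried Tg:Col1a1-eGFPL10a on a C57/129sv background, were of both sexes and were labelled postnatal day 14 to 300. The transgene expresses a GFP-tagged ribosomal protein from a collagen 1α1 promoter and enhancer, and translating ribosome affinity purification (TRAP) pulls tagged ribosomes and their mRNA out of a lysate. The study used 5 groups of 3 one-colour Affymetrix arrays: bound day 0 (arrays 1 to 3) and unbound day 0 (4 to 6), both after sham surgery, then bound day 2 (7 to 9), bound day 5 (10 to 12) and unbound day 5 (13 to 15), all after unilateral ureteral obstruction (UUO). The bound fraction is labelled kidney pericytes and the unbound fraction kidney medulla. Neither separate animals for the arrays of a group nor pairing of fractions is stated in the labels, so p-values measure the spread between arrays, and 3 arrays per group limit their precision. The model reports on cells in which this collagen element is active, and the unbound fraction is the remaining lysate rather than a second cell type. No unbound arrays of day 2 are used here.

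The catalytic work of the proteasome is done inside the 20S core, a stack of rings of alpha and beta subunits, by the beta subunits Psmb5, Psmb6 and Psmb7. The 19S particle caps the core, recognises ubiquitin chains, removes them and unfolds the substrate with a ring of ATPases. Interferon induces the alternative catalytic subunits Psmb8, Psmb9 and Psmb10, which take the places of Psmb5, Psmb6 and Psmb7 in newly built cores, and the activator made of Psme1 and Psme2. The resulting immunoproteasome is abundant in leukocytes and makes peptides that the transporter Tap1 and Tap2 carries to MHC class I molecules. In injured kidney both resident cells and infiltrating leukocytes can express these genes.

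Promoters of the immunoproteasome genes and of their constitutive partners are shown because these genes are the pairs that the comparisons below set side by side. Each is from the 250 bases before the start that the RefSeq promoter table gives (build GRCm38.p6), 5′ to 3′ on the strand of the gene, with motif matches in capitals. That start lay inside the annotated gene for 11 of the 41 windows of members, and for Psmb6 by 33 bases, which are left out of the 217 printed for it. Of the 45 genes, 38 had a promoter in that table, and Psmb7 is named only. The motifs searched on both strands were a pair of GAAA half-sites of interferon regulatory factors set 2 bases apart, TTCNNNGAA, the STAT palindrome, and TGACNNNGC, the core of the antioxidant response element that Nfe2l1 can bind. The windows lie at chr17:34197945-34198194 (plus strand) for Psmb8, chr17:34187331-34187580 (minus strand) for Psmb9, chr8:105938393-105938642 (minus strand) for Psmb10, chr14:54617996-54618245 (minus strand) for Psmb5 and chr11:70525107-70525323 (plus strand) for Psmb6.
Psmb8: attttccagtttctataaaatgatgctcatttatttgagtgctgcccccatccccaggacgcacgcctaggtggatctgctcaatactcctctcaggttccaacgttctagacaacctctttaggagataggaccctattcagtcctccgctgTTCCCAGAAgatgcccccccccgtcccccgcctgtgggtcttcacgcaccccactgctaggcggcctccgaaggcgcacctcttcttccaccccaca
Psmb9: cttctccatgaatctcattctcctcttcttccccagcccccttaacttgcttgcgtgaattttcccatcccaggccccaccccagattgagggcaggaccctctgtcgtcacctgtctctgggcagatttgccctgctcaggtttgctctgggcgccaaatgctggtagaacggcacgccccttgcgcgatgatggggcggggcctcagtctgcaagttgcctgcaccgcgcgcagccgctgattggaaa
Psmb10: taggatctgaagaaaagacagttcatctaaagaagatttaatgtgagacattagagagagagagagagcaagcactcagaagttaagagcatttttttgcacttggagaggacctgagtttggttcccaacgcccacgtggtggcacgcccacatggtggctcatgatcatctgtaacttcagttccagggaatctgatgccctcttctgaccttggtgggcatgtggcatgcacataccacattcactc
Psmb5: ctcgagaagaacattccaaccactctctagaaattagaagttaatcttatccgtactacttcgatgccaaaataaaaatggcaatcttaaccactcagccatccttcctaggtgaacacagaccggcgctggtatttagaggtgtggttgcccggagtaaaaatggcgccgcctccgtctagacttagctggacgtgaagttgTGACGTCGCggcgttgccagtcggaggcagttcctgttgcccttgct
Psmb6: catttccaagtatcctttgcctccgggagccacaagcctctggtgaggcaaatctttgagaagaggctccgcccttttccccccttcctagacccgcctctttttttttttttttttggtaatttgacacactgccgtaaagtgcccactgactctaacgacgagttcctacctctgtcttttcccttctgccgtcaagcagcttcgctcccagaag

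The window of Psmb8 holds a STAT palindrome, and that of Psmb5 holds an antioxidant response element core. The match of Psmb6 to that core lies in the 33 bases inside the annotated gene, so the bases printed hold none. The counts that follow are over the windows as the table has them, including bases inside annotated genes. None of the 3 letter patterns was found in the windows of Psmb9 and Psmb10, which says only that these letters are absent from these bases. The STAT palindrome occurred in 1 of the 41 member windows (2.44%), against 7.02% of the 32851 promoters of that length. The antioxidant response element core occurred in 5 member windows (12.2%), of Psmb5, Psmb6, Psmc6, Psmd12 and Psmd9, against 10.2% of all. The interferon regulatory factor pair occurred in 3 (7.32%), of Psmb3, Psmd4 and Psmd9, against 2.98% of all. Psmb9, Tap1, Psmb8 and Tap2 follow one another on chromosome 17 with no other protein-coding gene between them in that annotation.

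Array medians ran from 16.4 to 198.8 intensity units before normalization. Spiked hybridization controls averaged 12114 to 12905 units on the bright arrays 6, 9, 12 and 15, against 4727 to 5864 units elsewhere, and bound day 0 holds no bright array. Array 11 had a Gapdh 5′ to 3′ ratio of 0.0269, against 0.178 to 0.583 on the others. The mean log2 intensity of 10 fibroblast and pericyte markers was 10.9 to 11.1 on bound day 0 arrays and 9.10 to 9.42 on unbound day 0 arrays. There 7 of the 10 passed as higher in the bound fraction (median difference 1.84). On day 5 the bound fraction had 4 of the 10 higher (median difference 0.87). In unbound day 5 over unbound day 0, 7 of the 10 were called higher (median 1.91). Proximal tubule markers were present in both fractions, at 10.5 to 11.3 on bound day 0 arrays and 10.9 to 11.8 on unbound day 0 arrays. In what follows a level is a log2 normalized intensity of 1 array, a difference is in log2 units ± standard error, and the adjusted p is that of limma with Benjamini-Hochberg adjustment over 16864 genes, called at 0.05. All 45 genes passed the filter on dim genes, and 44 were above the highest negative control of the array on all 15 arrays. Levels of different genes are not comparable with each other on these arrays.

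Most proteasome genes did not pass the test in any comparison, and the calls made were mostly for immunoproteasome and 19S genes. In bound day 2 over bound day 0, 1 member was called higher and 0 lower, when 5.6% of all genes tested were called higher and 3.65% lower. In bound day 5 over bound day 0, 6 were called higher and 1 lower, against 13.7% and 9.99% of all genes. In unbound day 5 over unbound day 0, 2 were called higher and 1 lower, against 6.43% and 3.93%. Bound day 5 over bound day 2 gave 0 calls with limma, with 0.51% of all genes higher and 0.0771% lower. There 1 of 45 members and 2735 of all 16864 genes had an unadjusted p under 0.05. In this fit the shares of members called were near or below those of all genes. That order turned in bound day 5 over bound day 0 with a trended and robust prior, where 33.3% of members and 26.8% of all genes were called, and in a fit that weights arrays by their quality, where 53.3% of members and 36.5% of all genes were called. In what follows a gene passed or did not pass in the first of these fits, called the reported fit, unless another is named. Without array 2, 3 or 10 the calls for bound day 5 over bound day 0 numbered 4, and without array 4, 5 or 14 those for unbound day 5 over unbound day 0 numbered 1. Without array 7 there were 3 calls for bound day 2 over bound day 0, and without array 8 there was 1 for bound day 5 over bound day 2.

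Few members were called between fractions. Bound day 0 over unbound day 0 gave 0 members higher and 2 lower (Psmb8 and Psmd12), against 4.81% and 4.1% of all genes, and without any single array of these 6 the count was 0 or 1. Bound day 5 over unbound day 5 gave 0 calls with limma, against 6.37% of all genes higher and 7.74% lower. An unadjusted p under 0.05 was reached there by 4 of 45 members and by 5108 of all 16864 genes. The change in enrichment is the bound over unbound difference of day 5 minus that of day 0. It gave 0 calls among members, against 0.0178% of all genes higher and 0% lower. For it 2 of 45 members and 2395 of all 16864 genes had an unadjusted p under 0.05.

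Although few single genes passed, the differences of members lay mainly on one side in the bound fraction. In bound day 2 over bound day 0, 40 of 45 differences were above 0 and their median was 0.36, whereas 50.1% of all genes were above 0 and the median of all genes was 0.00096. In bound day 5 over bound day 0, 39 of 45 were above 0 with a median of 0.41, whereas 55.2% of all genes were above 0 with a median of 0.12. In unbound day 5 over unbound day 0, 32 of 45 were above 0 with a median of 0.12, against 50.4% of all genes and a median of 0.01. All members were read on the same few arrays, so these are not counts of independent results. The mean level of members was 11.10, 10.83 and 10.67 on bound day 0 arrays. It was 11.08, 11.26 and 11.21 on bound day 2 arrays, which overlap them, and 11.33, 11.17 and 11.26 on bound day 5 arrays, which lie above. The unbound median had the opposite sign with arrays centred on their medians, at -0.18 for members and -0.22 for all genes, while the bound day 5 medians were then 0.84 and 0.34. Markers of other cells moved in the same comparisons. Of 7 proximal tubule markers, 6 were called lower in bound day 5 over bound day 0 (median -2.69), with all 7 differences below 0. Their means were 8.13 to 8.67 on bound day 5 arrays and 10.5 to 11.3 on bound day 0 arrays. Of 6 endothelial markers, 3 were called lower there (median -1.64), with all 6 differences below 0. In bound day 2 over bound day 0, 3 of 7 proximal tubule markers were called lower (median -1.41). In unbound day 5 over unbound day 0, 1 of 7 was called lower (median -1.21). All 7 differences were below 0 in both comparisons. The bound day 2 arrays were not alike. Array 7 had a proximal tubule mean of 10.4, just below the bound day 0 range, and arrays 8 and 9 had 8.34 and 8.61. Endothelial means were 9.78 on array 7, 8.61 on array 8 and 7.81 on array 9. The part of these markers' cells in the values of members was not tested. Bound day 2 and bound day 5 share the bound day 0 arrays, so their values are given side by side and not as independent of each other.

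**Figure D1:**
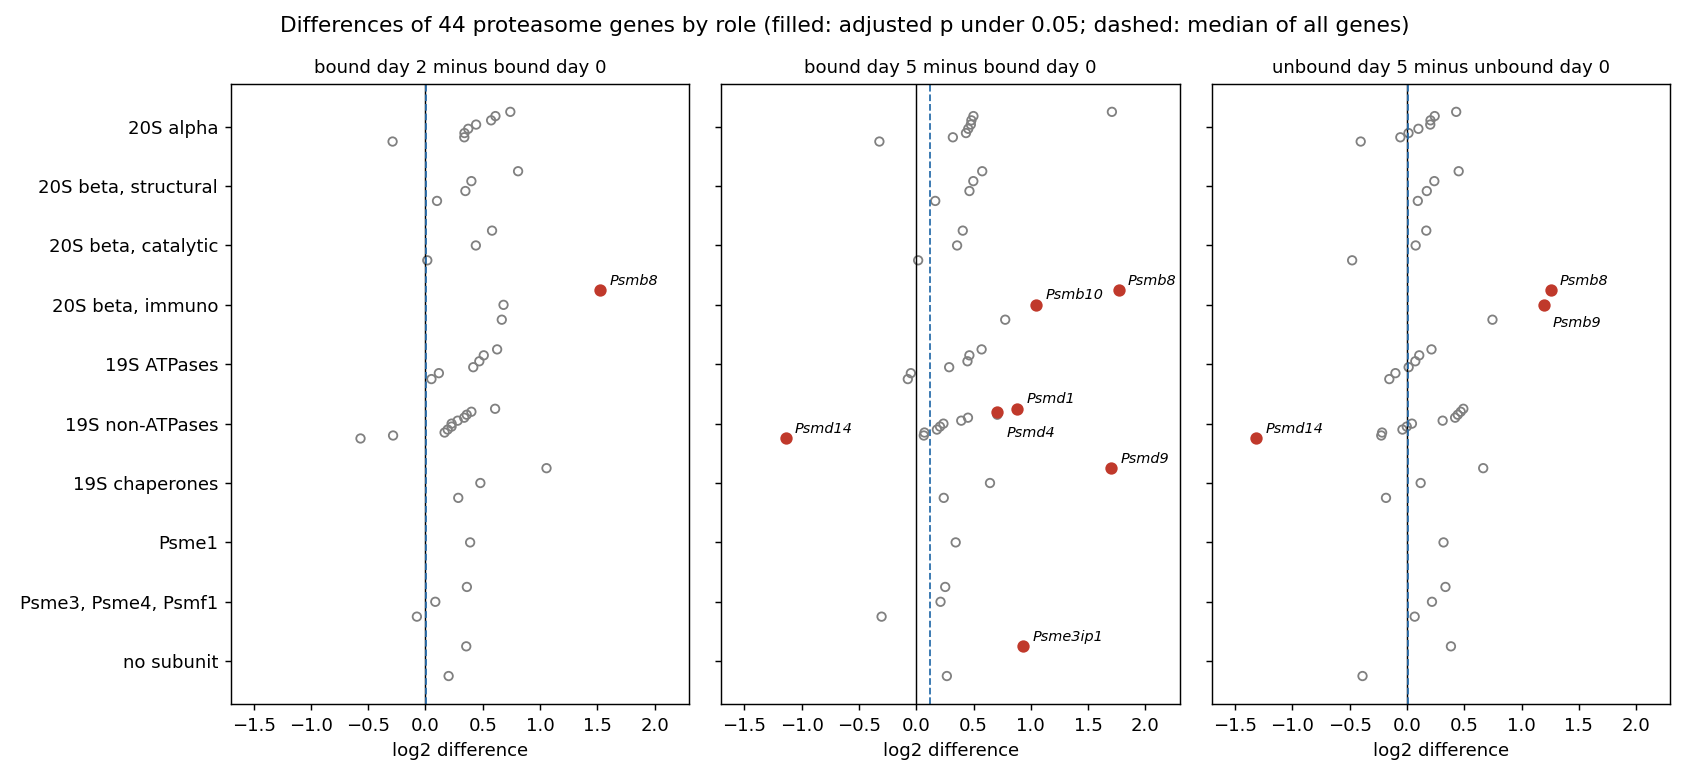
Log2 differences of 44 proteasome genes, arranged by role, in bound day 2 over bound day 0, bound day 5 over bound day 0 and unbound day 5 over unbound day 0. Each circle is a gene, filled where the adjusted p was under 0.05, the dashed line is the median of all genes tested, and Psmb11, which was below the negative controls in every group, is left out. The cloud of unfilled circles sits mainly to the right of the dashed line in both bound panels, and Psmb8 is far to the right in all panels. The medians over all 45 members, filled circles and Psmb11 included, were 0.36 and 0.41 in the bound panels.

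Psmb8, the immunoproteasome subunit that replaces Psmb5, changed most clearly. Its levels were 8.62, 8.43 and 8.33 in bound day 0, 10.02, 9.90 and 10.05 in bound day 2, and 10.21, 10.26 and 10.22 in bound day 5. In the unbound fraction they were 10.23, 10.47 and 10.46 on day 5 and 9.12, 9.10 and 9.17 on day 0. The obstructed arrays of either fraction all lay above the sham arrays, with no overlap. Psmb8 rose 2.88-fold in bound day 2 over bound day 0 (1.53 ± 0.16, adjusted p = 0.000153) and 3.41-fold in bound day 5 over bound day 0 (1.77 ± 0.16, adjusted p = 3.29e-05). It rose 2.39-fold in unbound day 5 over unbound day 0 (1.26 ± 0.16, adjusted p = 0.000623), and the pair of bright arrays 15 and 6 alone gave 1.29. Between bound day 5 and bound day 2 the difference was 0.24 ± 0.16 (adjusted p = 0.492). When its second probe set is averaged in, which had a mean level of 3.23 and was above the negative controls on 6 arrays, the adjusted p-values were 0.481, 0.615 and 0.412. With only the 6 arrays of the contrast in the fit, the bound day 2 call had an adjusted p of 0.0617.

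In sham kidneys Psmb8 was 1.59-fold lower in the bound than in the unbound fraction (-0.67 ± 0.16, adjusted p = 0.0274). That call was lost without any one of arrays 2 to 6, at adjusted p-values of 0.0745 to 0.0929. On day 5 the bound minus unbound difference was -0.16 ± 0.16 (adjusted p = 0.560) and the groups overlapped at 10.21 to 10.26 against 10.23 to 10.47. The change in enrichment was 0.51 ± 0.23 (adjusted p = 0.349), so a different enrichment on the 2 days was not shown.

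Psmb10, which replaces Psmb7, had levels of 10.51, 10.63 and 9.91 in bound day 0, 10.88, 11.47 and 10.74 in bound day 2, and 11.44, 11.36 and 11.40 in bound day 5. It rose 2.07-fold in bound day 5 over bound day 0 (1.05 ± 0.25, adjusted p = 0.0110). Day 2 lay between, with all arrays above those of day 0, at 0.68 ± 0.25 (adjusted p = 0.112). In the unbound fraction the levels were 10.97, 11.46 and 11.32 on day 5 and 10.41, 10.50 and 10.60 on day 0. The difference there was 0.75 ± 0.25 (adjusted p = 0.0801), with groups that did not overlap, and it passed with only the 6 arrays of the contrast (0.0294), with the trended and robust prior (0.0437) and with array weights (0.00850). The bound day 5 call was lost without the bright arrays (adjusted p = 0.0619) and with only the 6 arrays of the contrast (0.0533).

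Psmb9, which replaces Psmb6, was called in the unbound fraction. Its levels there were 9.83, 9.97 and 10.10 on day 5 and 8.59, 8.66 and 9.08 on day 0, a 2.28-fold rise (1.19 ± 0.30, adjusted p = 0.0250). In the bound fraction the levels were 9.06, 8.07 and 8.91 on day 0, 9.08, 9.11 and 9.85 on day 2, and 9.75, 9.27 and 9.35 on day 5. All arrays of bound day 2 and of bound day 5 lay above those of bound day 0. Bound day 5 minus bound day 0 was 0.78 ± 0.30 (adjusted p = 0.0785), and bound day 2 minus bound day 0 was 0.67 ± 0.30 (adjusted p = 0.193). With array weights bound day 5 minus bound day 0 was 1.23 ± 0.27 and passed (adjusted p = 0.00405). The call in the unbound fraction was lost without any one of arrays 4, 5, 13, 14 and 15 (adjusted p = 0.0677 to 0.0985), without the bright arrays (0.0985) and under median centring (0.178). Whether the fractions differ in this response was tested by the change in enrichment, which was -0.42 ± 0.42 (adjusted p = 0.687).

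Psme1, a subunit of the interferon-inducible activator, did not pass in any comparison in the reported fit. Its levels were 12.25, 11.55 and 11.35 in bound day 0, 11.91, 12.27 and 12.14 in bound day 2, and 12.43, 11.48 and 12.28 in bound day 5. The unbound levels were 12.49, 12.63 and 12.62 on day 5 and 12.33, 12.24 and 12.22 on day 0. Its bound minus unbound difference was -0.54 ± 0.28 on day 0 and -0.52 ± 0.28 on day 5 (adjusted p = 0.250 and 0.235). With array weights it passed in bound day 0 over unbound day 0 (-0.63 ± 0.19, adjusted p = 0.0307) and in bound day 5 over bound day 0 (0.67 ± 0.21, adjusted p = 0.0232), where the reported fit gave 0.34.

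**Figure D2:**
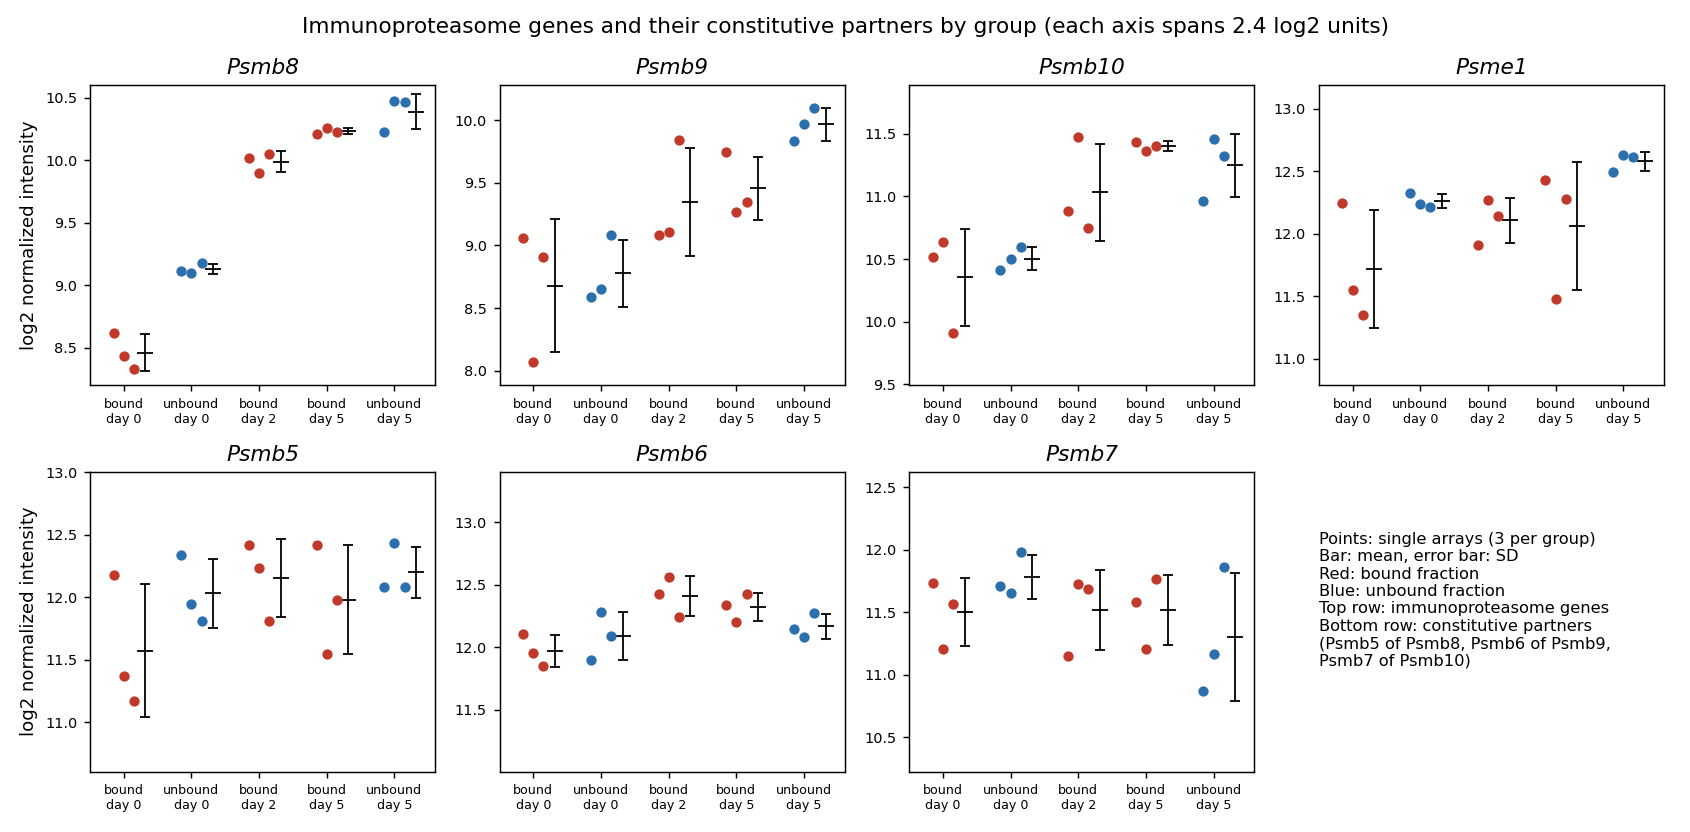
Log2 normalized intensity of the 4 immunoproteasome genes (top) and of the constitutive partners Psmb5, Psmb6 and Psmb7 (bottom) on each array of the 5 groups, with red for bound and blue for unbound. Points are arrays, the bar and error are the mean and SD of 3 arrays, and every axis spans 2.4 log2 units. Psmb8 separates obstructed arrays (9.90 to 10.47) from sham arrays (8.33 to 9.17), whereas the arrays of Psmb7 overlap across groups.

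The constitutive partners did not pass in any comparison in the reported fit. Psmb5, the chymotrypsin-like subunit, had levels of 12.18, 11.37 and 11.17 in bound day 0, 12.42, 12.23 and 11.81 in bound day 2, and 12.42, 11.55 and 11.98 in bound day 5. The groups overlapped, and bound day 5 minus bound day 0 was 0.41 ± 0.31 (adjusted p = 0.371). With array weights that difference was 0.75 ± 0.26 and passed (adjusted p = 0.0369). Psmb6, the caspase-like subunit, had levels of 12.34, 12.21 and 12.43 in bound day 5, against 12.11, 11.95 and 11.85 in bound day 0, with a difference of 0.36 ± 0.18 (adjusted p = 0.173). Psmb7, the trypsin-like subunit, gave 0.02 ± 0.29 in the same comparison (adjusted p = 0.976). In unbound day 5 over unbound day 0 the partners gave 0.17 ± 0.31 for Psmb5, 0.08 ± 0.18 for Psmb6 and -0.48 ± 0.29 for Psmb7 (adjusted p = 0.797, 0.848 and 0.340).

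Each immunoproteasome gene was then set against its partner on the same array, as a log2 ratio centred on its mean over all arrays. The ratio of Psmb8 to Psmb5 averaged -0.76 ± 0.39 in bound day 0, 0.18 ± 0.35 in bound day 2 and 0.60 ± 0.46 in bound day 5 (SD, n = 3 each). In the unbound fraction it averaged 0.54 ± 0.18 on day 5 and -0.55 ± 0.30 on day 0. The day 5 arrays lay above those of day 0 in either fraction. The ratio of Psmb10 to Psmb7 was 1.03 higher in bound day 5 than in bound day 0 and 1.22 higher in unbound day 5 than in unbound day 0, again without overlap. The ratio of Psmb9 to Psmb6 was 1.12 higher in unbound day 5 than in unbound day 0, without overlap. In the bound fraction its difference of 0.42 came with overlapping arrays.

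Over the sets, the mean of the 4 immunoproteasome genes minus that of the 32 constitutive genes, centred on all arrays, was -0.51 ± 0.10 in bound day 0, -0.01 ± 0.11 in bound day 2 and 0.13 ± 0.12 in bound day 5 (SD, n = 3 each). It was 0.60 ± 0.12 in unbound day 5 and -0.21 ± 0.17 in unbound day 0. The shift was 0.50 for bound day 2 over bound day 0, 0.64 for bound day 5 over bound day 0 and 0.82 for unbound day 5 over unbound day 0, with groups that did not overlap. Bound day 5 and bound day 2 overlapped, with a difference of 0.14, which was 0.08 without array 10. The balance was lower in the bound than in the unbound fraction on both days, by -0.30 on day 0 and -0.47 on day 5. The day 0 value was -0.20 without array 6 and -0.11 when all probe sets of a gene were averaged. No p is given for these scores, since the genes in them were chosen with earlier results of the series known.

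The group means of leukocyte markers stood in the same order as those of this balance, but arrays within a group mostly did not. The mean level of 7 leukocyte markers (Ptprc, Cd52, Coro1a, Laptm5, Cd53, Tyrobp and Fcer1g) was 8.20 to 9.17 on bound day 0 arrays, 9.15 to 10.4 on bound day 2 arrays and 9.63 to 10.7 on bound day 5 arrays. On unbound arrays it was 11.4 to 11.7 on day 5 and 9.03 to 9.51 on day 0. In bound day 5 over bound day 0, 4 of the 7 were called higher, among them Tyrobp (1.71 ± 0.30, adjusted p = 0.00191), a signalling adaptor of myeloid cells. In unbound day 5 over unbound day 0, 5 of the 7 were called higher. All 7 differences were above 0 in both comparisons. Of 9 macrophage markers, 4 were called higher in bound day 5 over bound day 0 and 7 in unbound day 5 over unbound day 0. All 9 differences were above 0 in both comparisons. The mean of these markers ranged over 8.77 to 10.2 in bound day 5 arrays and 6.94 to 8.30 in bound day 0 arrays. It ranged over 10.9 to 11.2 in unbound day 5 arrays and 8.31 to 8.61 in unbound day 0 arrays. T cell and NK cell markers averaged 3.36 to 4.80 on bound day 5 arrays and 4.03 to 4.33 on bound day 0 arrays, and 0 of 7 passed there. On unbound arrays they averaged 5.56 to 5.84 on day 5 and 4.04 to 5.56 on day 0, and 1 of 7, Cd4, was called higher (3.21 ± 0.74, adjusted p = 0.0169). Cd4 averaged 3.81 in unbound day 0, below the highest negative control, so that difference starts from background. In bound day 0 Cd3g, Cd4, Nkg7 and Ncr1 averaged below that control, as did Cd3g, Nkg7 and Ncr1 in bound day 5. For these genes the absence of a call in the bound fraction shows little. In the bound fraction the array with the highest leukocyte mean of day 5, array 11 at 10.7, had the lowest balance of that day at 0.01, and array 10 had the highest balance at 0.26. Array 11 is also the array with the Gapdh 5′ to 3′ ratio of 0.0269 and the lowest median intensity, 16.4. The highest leukocyte mean also went with the lowest balance in bound day 2 (array 7, 10.4 and -0.10). So it did in unbound day 5 (array 13, 11.7 and 0.48). In bound day 0 array 1 had the lowest leukocyte mean, 8.20, and the highest balance, -0.44. In unbound day 0 array 6 was highest in both, at 9.51 and -0.01. With 3 arrays per group these orders cannot decide the part of leukocyte RNA in the immunoproteasome values, which was not tested. In these lysates more cells of a type and more RNA per cell cannot be told apart.

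**Figure D3:**
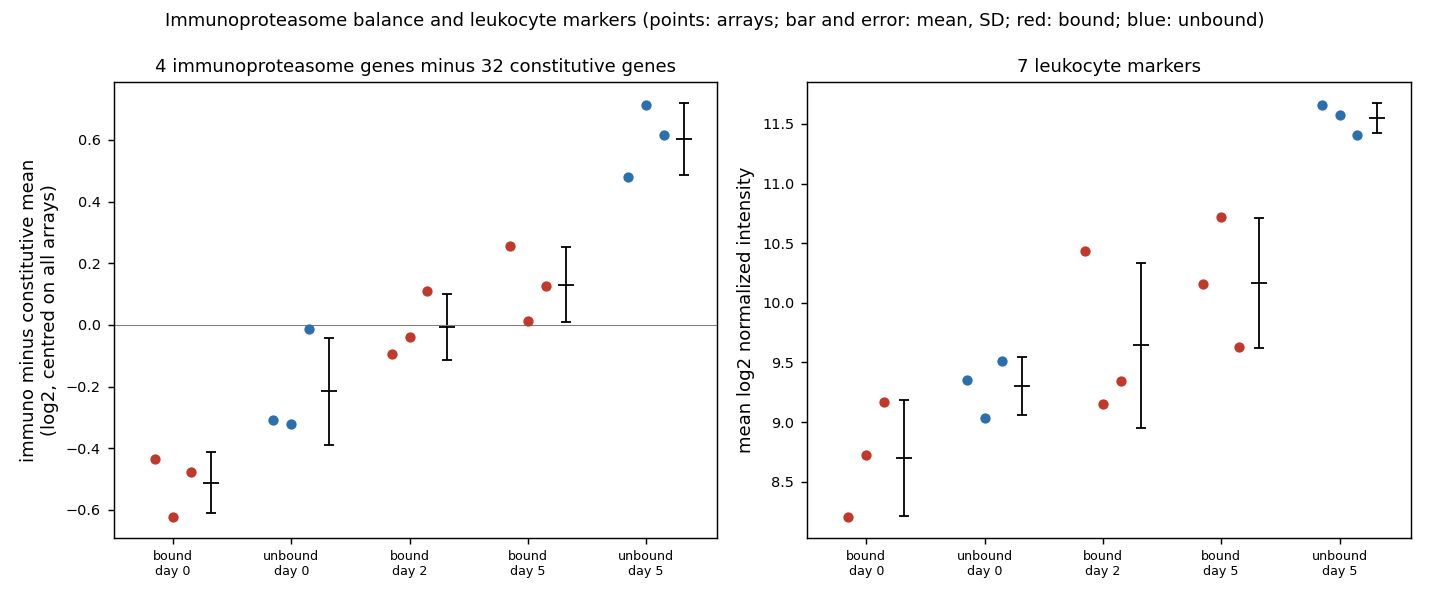
Left, the mean log2 level of the 4 immunoproteasome genes minus that of the 32 constitutive genes on each array, centred on all arrays. Right, the mean log2 normalized intensity of 7 leukocyte markers on the same arrays, with red for bound and blue for unbound. Points are arrays and bars are means with SD of 3 arrays: both measures are highest in unbound day 5 (0.60 and 11.55) and lowest in bound day 0 (-0.51 and 8.70).

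The genes that act with the immunoproteasome in antigen presentation were listed by function, and these lists too were set with results of the series known. Of 12 MHC class I pathway genes, 2 were called higher in bound day 2 over bound day 0 (Tap1 and the peptidase Erap1), and 2 were called higher and 1 lower in bound day 5 over bound day 0. In unbound day 5 over unbound day 0, 4 were called higher and 0 lower. The medians of the list were 0.32, 0.13 and 0.56, against 0.00096, 0.12 and 0.01 for all genes. In these comparisons 5.6%, 13.7% and 6.43% of all genes were called higher, and 3.65%, 9.99% and 3.93% lower. In bound day 5 over bound day 0 the counts and the median of the list were thus near those of all genes. Tap1, a subunit of the peptide transporter, had levels of 7.11, 8.06 and 7.39 in bound day 0, 8.71, 8.89 and 8.79 in bound day 2, and 9.36, 9.12 and 8.33 in bound day 5. It rose by 1.28 ± 0.31 on day 2 and 1.42 ± 0.31 on day 5 against bound day 0 (adjusted p = 0.0224 and 0.00700), and by 1.44 ± 0.31 in unbound day 5 over unbound day 0 (adjusted p = 0.0115). Tap2, the other subunit, rose by 1.43 ± 0.29 in bound day 5 over bound day 0 and by 1.32 ± 0.29 in unbound day 5 over unbound day 0 (adjusted p = 0.00506 and 0.0134). The class I heavy chain gene H2-D1 fell in bound day 5, with levels of 10.79, 10.79 and 10.49, against 11.94, 11.74 and 11.85 in bound day 0 (-1.16 ± 0.20, adjusted p = 0.00203). H2-K1, another heavy chain gene, rose in unbound day 5 over unbound day 0 (0.91 ± 0.24, adjusted p = 0.0332). Heavy chain genes are close copies of each other, so probe sets may read more than 1 of them.

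Of 20 interferon response genes, 3 were called higher and 0 lower in bound day 2 over bound day 0, 4 higher and 2 lower in bound day 5 over bound day 0, and 5 higher and 1 lower in unbound day 5 over unbound day 0. The medians were 0.34, 0.63 and 0.64, against 0.00096, 0.12 and 0.01 for all genes. Of all genes 5.6%, 13.7% and 6.43% were called higher, and 3.65%, 9.99% and 3.93% lower. Irf1, a transcription factor that induces immunoproteasome genes, rose by 0.92 ± 0.23 in bound day 5 over bound day 0 and by 1.11 ± 0.23 in unbound day 5 over unbound day 0 (adjusted p = 0.0146 and 0.00968). The guanylate-binding protein gene Gbp2 rose by 1.38 ± 0.36 in bound day 2 over bound day 0 and by 2.07 ± 0.36 in unbound day 5 over unbound day 0 (adjusted p = 0.0314 and 0.00351). Rsad2, an antiviral enzyme gene, fell by 1.67 ± 0.48 in bound day 5 over bound day 0, and Ifit2, an RNA-binding antiviral gene, fell by 0.85 ± 0.23 (adjusted p = 0.0263 and 0.0221).

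Within the constitutive core, none of the 8 alpha ring genes and none of the 4 structural beta genes passed over time or between fractions in the reported limma fit. With array weights 6 alpha ring genes and 1 structural beta gene passed in bound day 5 over bound day 0. In bound day 5 over bound day 0 the alpha ring had a median of 0.47, with 7 of 8 differences above 0, and the structural beta genes a median of 0.48, with 4 of 4 above 0. Psmb2 came closest, at 0.81 ± 0.23 in bound day 2 over bound day 0 (adjusted p = 0.0503), and it passed under 4 other settings (0.0226 to 0.0394). Its levels were 10.82, 10.83 and 10.27 in bound day 0, 11.49, 11.63 and 11.23 in bound day 2 and 11.27, 11.05 and 11.32 in bound day 5, without overlap between obstructed and sham arrays of the bound fraction. Psma6, an alpha ring gene, lay on the other side with -0.32 ± 0.17 in bound day 5 over bound day 0 (adjusted p = 0.185, and 0.0341 with array weights). In the bound day 0 group the constitutive genes moved together by array, with a mean level of 11.7 on array 1, 11.5 on array 2 and 11.3 on array 3.

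Psma8 and Psmb11 stood apart from the other core genes. Psma8, a testis subunit of the alpha ring, had levels of 7.30, 4.93 and 4.48 in bound day 0, 4.42, 6.99 and 7.14 in bound day 2, and 6.86, 7.16 and 7.81 in bound day 5. On day 5 the bound arrays lay above the unbound arrays at 5.07, 4.93 and 5.97, but the difference of 1.95 ± 0.77 did not pass (adjusted p = 0.111), though it did with only the 6 arrays of the contrast (0.0227) and with array weights (0.0109). Its levels spread by over 2 log2 units within both early bound groups. Psmb11, the catalytic subunit of thymic epithelium, averaged below the highest negative control in all groups, so no fold is given.

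The 6 ATPases of the 19S particle, Psmc1 to Psmc6, did not pass in any comparison in the reported fit. In bound day 2 over bound day 0 all 6 differences were above 0, with a median of 0.44 and a range of 0.05 to 0.63. In bound day 5 over bound day 0 their median was 0.37, and in unbound day 5 over unbound day 0 it was 0.04. Psmc5 gave 0.63 ± 0.24 in bound day 2 over bound day 0 and Psmc6 gave 0.57 ± 0.22 in bound day 5 over bound day 0 (adjusted p = 0.126 and 0.0765). Psmc2, Psmc4 and Psmc6 passed in bound day 5 over bound day 0 with array weights (0.0247 to 0.0339) and with the trended and robust prior (0.0238 to 0.0378), and Psmc4 also with arrays centred on their medians (0.0476).

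Among the 11 non-ATPase genes of the 19S particle, Psmd14 was called lower and 2 others higher in bound day 5 over bound day 0. Psmd14 encodes the metalloprotease that cuts ubiquitin chains from substrates. Its levels were 11.74, 11.77 and 11.68 in bound day 0, 11.53, 10.94 and 11.02 in bound day 2, and 10.10, 10.80 and 10.87 in bound day 5. In the unbound fraction they were 10.77, 10.15 and 11.13 on day 5 and 12.07, 12.12 and 11.80 on day 0. Every obstructed array lay below every sham array. Psmd14 was 2.21-fold lower in bound day 5 than in bound day 0 (-1.14 ± 0.29, adjusted p = 0.0144) and 2.49-fold lower in unbound day 5 than in unbound day 0 (-1.32 ± 0.29, adjusted p = 0.0125). Bound day 2 minus bound day 0 was -0.57 ± 0.29 (adjusted p = 0.251), and the pair of bright unbound arrays 15 and 6 gave -0.68. The bound call was lost without array 10 (adjusted p = 0.0625) and under median centring of the arrays (0.0884), the unbound call without array 4, 5 or 14 (0.0510 to 0.0593). The gene rests on 1 probe set.

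Psmd1, a scaffold of the base of the 19S particle, had levels of 12.67, 11.70 and 12.24 in bound day 5, against 11.49, 11.27 and 11.21 in bound day 0. It rose by 0.88 ± 0.29 (adjusted p = 0.0421), and the groups did not overlap. Psmd4, a ubiquitin receptor, had levels of 12.34, 12.10 and 12.09 in bound day 5, against 11.77, 11.52 and 11.11 in bound day 0, and rose by 0.71 ± 0.21 (adjusted p = 0.0292). Psmd1 did not pass without any one of arrays 1, 2, 3, 10 and 12 (0.0558 to 0.160), and Psmd4 did not pass without any one of arrays 2, 3, 10, 11 and 12 (0.0506 to 0.114). The other 2 probe sets of Psmd4 gave 0.24 ± 0.47 and -0.69 ± 1.01.

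In sham kidneys Psmd12, a lid subunit of the 19S particle, had levels of 11.23, 11.08 and 10.90 in the bound fraction, against 11.83, 11.80 and 11.63 in the unbound fraction. It was 1.61-fold lower (-0.68 ± 0.19, adjusted p = 0.0463), and it did not pass without any one of these 6 arrays (0.0571 to 0.152). Psmd3, another lid subunit, lay the other way at 0.79 ± 0.24 without overlap (adjusted p = 0.0635), and it passed under 4 other settings (0.0308 to 0.0495). On day 5 Psmd12 gave -0.01 and Psmd3 0.41 ± 0.24 (adjusted p = 0.278), and neither change in enrichment passed. With array weights that of Psmd12 did (0.69, adjusted p = 0.0372).

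**Figure D4:**
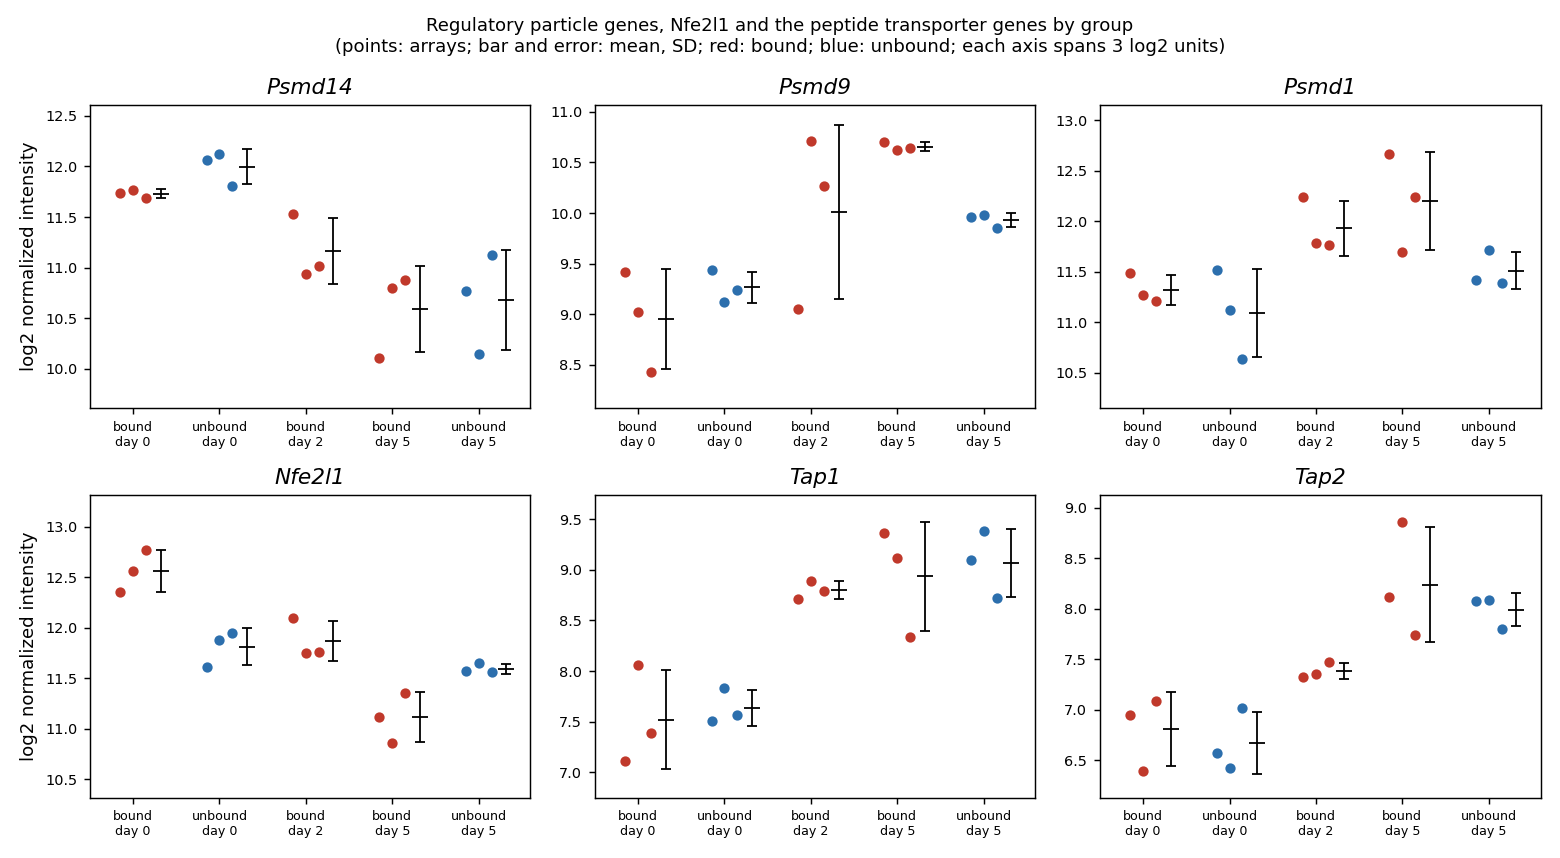
Log2 normalized intensity on each array of the 5 groups for the 19S genes Psmd14 and Psmd1, the 19S chaperone Psmd9, the transcription factor Nfe2l1 and the peptide transporter genes Tap1 and Tap2, with red for bound and blue for unbound. Points are arrays, the bar and error are the mean and SD of 3 arrays, and every axis spans 3 log2 units. Psmd14 is lower on all obstructed arrays (10.10 to 11.53) than on sham arrays (11.68 to 12.12), while Nfe2l1 is highest in bound day 0.

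The chaperones that assemble the base of the 19S particle are Psmd5, Psmd9 and Psmd10. Psmd9 had levels of 9.41, 9.02 and 8.43 in bound day 0, 9.05, 10.71 and 10.27 in bound day 2, and 10.70, 10.62 and 10.65 in bound day 5. It rose 3.26-fold in bound day 5 over bound day 0 (1.70 ± 0.36, adjusted p = 0.00634), without overlap. Unbound day 5 had 9.96, 9.98 and 9.85, against 9.43, 9.12 and 9.24 in unbound day 0, a difference of 0.67 ± 0.36 (adjusted p = 0.295). These groups did not overlap, and the difference passed with only the 6 arrays of the contrast (0.0232) and with array weights (0.0138). Bound day 5 minus unbound day 5 was 0.73 and did not pass, though it did under the same 2 settings (0.0276 and 0.0121). The change in enrichment of Psmd9 passed with array weights (1.03, adjusted p = 0.0433) and not in the reported fit. Its probe sets did not move alike. In a fit of every probe set as a row of its own, the 3 probe sets gave 1.70 ± 0.37, 0.57 ± 0.38 and -3.01 ± 0.89 for bound day 5 over bound day 0, at mean levels of 9.76, 6.03 and 4.64. The last was above the negative controls on 8 arrays, and the mean of all 3 gave -0.24 ± 0.34. Without the bright arrays the gene had an adjusted p of 0.0520. Psmd5 gave 0.24 and Psmd10 0.64 ± 0.34 in that comparison (adjusted p = 0.194 for Psmd10), and with array weights Psmd10 gave 1.11 and passed (0.00679).

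Genes that help to build or regulate the proteasome but are no members were read from a list of 11 measured genes. In bound day 5 over bound day 0, 3 were called higher and 1 lower, with a median of 0.44. Of all genes 13.7% were called higher and 9.99% lower there, with a median of 0.12. Psmg4 and Psmg1, chaperones of the core, rose by 1.26 ± 0.35 and 0.63 ± 0.19 (adjusted p = 0.0231 and 0.0329), and Txnl1, a reductase bound to the 19S particle, rose by 0.64 ± 0.19 (adjusted p = 0.0301). Nfe2l1, the transcription factor that induces proteasome genes when proteasome activity is short, had levels of 12.35, 12.56 and 12.77 in bound day 0, 12.10, 11.75 and 11.76 in bound day 2 and 11.12, 10.86 and 11.36 in bound day 5. It fell by 1.45 ± 0.20 in bound day 5 over bound day 0 (adjusted p = 0.000532). In sham kidneys it was higher in the bound than in the unbound fraction (0.75 ± 0.20, adjusted p = 0.0404), where the unbound levels were 11.61, 11.88 and 11.95. Uchl5, a deubiquitinase of the 19S particle, rose in bound day 2 over bound day 0 (0.80 ± 0.21, adjusted p = 0.0300). In unbound day 5 over unbound day 0 none of the 11 was called. The 7 measured genes of the ubiquitin and Vcp list had 0 calls over time in the limma fit, and Ubqln1, a shuttle of ubiquitinated proteins, was lower in bound day 5 than in unbound day 5 (-0.54 ± 0.17, adjusted p = 0.0488).

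The remaining activators and the inhibitor did not pass in any comparison in the reported fit. Psme4, an activator found in nuclei, had levels of 10.65, 11.33 and 10.97 in bound day 5, against 11.93, 11.85 and 11.68 in unbound day 5, without overlap (-0.83 ± 0.35, adjusted p = 0.134), and with array weights it passed at -1.03 (0.00350). Psme3, a nuclear activator related to Psme1, gave -0.65 ± 0.36 in the same comparison and -0.64 ± 0.36 on day 0 (adjusted p = 0.244 and 0.289). Psmf1, an inhibitor of the core, gave 0.25 ± 0.19 in bound day 5 over bound day 0 (adjusted p = 0.370). Of the 2 members that are no subunits, Psme3ip1 rose by 0.93 ± 0.28 in that comparison (adjusted p = 0.0313), with 11.39, 11.39 and 11.13 in bound day 5, against 10.44, 10.47 and 10.20 in bound day 0. It did not pass without any one of arrays 1, 2, 3, 10 and 11 (0.0542 to 0.0990), and Psmc3ip did not pass (0.27 ± 0.47, adjusted p = 0.722).

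Of the 95 probe sets, 70 were above the highest negative control on all arrays and 4 on none, and 92 passed the filter. Of the 23 genes with 2 or more probe sets in the fit, 8 had probe sets of opposite sign and over 1 log2 unit apart in bound day 5 over bound day 0. These were Psma1, Psma3, Psmb8, Psmd13, Psmd4, Psmd7, Psmd9 and Psme4. Among the 18 genes with 2 or more probe sets above the negative controls on every array, 0 did so in that comparison. Psmd13, a lid subunit, had 3 probe sets in the fit: the one used for the gene gave 0.71 ± 0.28 and did not pass (adjusted p = 0.100 over probe sets), another gave 0.96 ± 0.27 (adjusted p = 0.0317), and a dim one gave -0.46 ± 0.47 (adjusted p = 0.541).

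**Figure D5:**
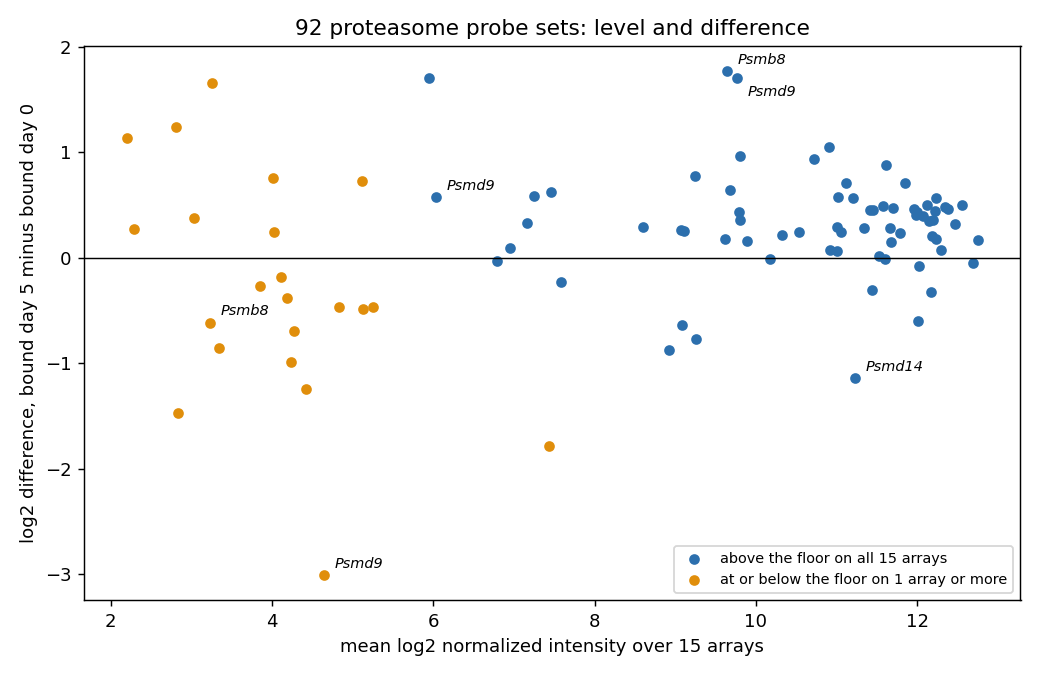
Log2 difference of bound day 5 minus bound day 0 for 92 proteasome probe sets, against the mean log2 normalized intensity of the probe set over 15 arrays. Blue points were above the highest negative control on all arrays and orange points were not. Bright probe sets lie mostly between 0 and 1, with Psmb8 and Psmd9 above and Psmd14 below, and the dim probe sets of Psmb8 and Psmd9 lie below 0, at -0.61 and -3.01.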

How the data were processed

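Polysomal RNA was amplified once and hybridised to one-colour arrays, per the labels. The values deposited by the authors are linear probe set intensities, 1 column per array. The probe summary, background correction and scaling behind them are not stated in the labels or headers used here. The 5 groups came from the sample titles. The platform lists 45037 probe sets and 64 controls. A single gene was found for 34945 of them (34741 by Entrez identifier), several genes for 932 and none for 9160.

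Values were transformed as log2 of the intensity plus 1 and quantile normalized over all arrays, controls included. Each gene was read from its single-gene probe set with the highest mean, and kept if at least 3 arrays had it over their 25th percentile (16864 of 18193 genes). The highest of 27 negative controls on an array served as its floor. A model of group means with 7 contrasts was fitted by limma 3.58.1 (R 4.3.3), on 10 residual and 2.32 prior degrees of freedom. Benjamini-Hochberg adjustment ran over every gene in a contrast, at 0.05. The procedure was tested on simulated data. Figures were drawn with matplotlib 3.10.9, and promoters were taken from RefSeq.

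The members, classes and lists were chosen with earlier results of these data known. Named genes are the immunoproteasome genes and their partners in every comparison, called members, Psma8 and Psmb11, members with discordant probe sets, members close to the threshold, and up to 4 called genes of each list. Psmb2, Psmc2, Psmc4, Psmc5, Psmc6, Psma6, Psmd3, Psme3, Psme4, Psmf1 and Cd4 were added after their values were seen. Alternatives were array medians in place of quantiles, no filter or the 50th percentile, the mean of all probe sets, a pseudocount of 16, a trended and robust prior, only the groups of a contrast, brightness as a block, array weights, no bright arrays and leaving out each array. A fit of every probe set on its own (31991 tested) and a constitutive set without Psma8 were added after the data were seen.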

Additional observations from a re-analysis of the deposited data

How the results depend on the processing

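The difference of Psmd9 for bound day 5 over bound day 0 reversed to -0.24 (adjusted p = 0.661) when all probe sets of a gene were averaged, because its dim probe set gave -3.01. The member calls of bound day 0 over unbound day 0, 2 in the reported fit, numbered 0 with arrays centred on their medians, with the mean of probe sets, with only the groups of the contrast and without the bright arrays, 1 with no filter and with brightness as a block, 5 with array weights, and 0 with every probe set as a row of its own. Those of bound day 5 over unbound day 5, 0 as reported, numbered 5 with arrays centred on their medians (5 higher and 0 lower), 2 with only the groups of the contrast, 5 with array weights and 1 with every probe set on its own. The change in enrichment had 2 calls with array weights, which is 4.44% of members, against 11.5% of all genes. For bound day 2 over bound day 0, with 1 call as reported, there were 3 with the filter at the 50th percentile and with the trended and robust prior, 2 with a pseudocount of 16, with array weights and with the block, and 0 with the mean of probe sets and with only the groups of the contrast. For bound day 5 over bound day 0 the 7 calls became 15 with the trended and robust prior, 24 with array weights, 4 with only the groups of the contrast, 3 with the mean of probe sets and 2 without the bright arrays, and with arrays centred on their medians they were 8 higher and 0 lower in place of 6 and 1. For unbound day 5 over unbound day 0 the 3 calls became 6 with only the groups of the contrast and 10 with array weights, and with median centring they were 1 higher and 1 lower in place of 2 and 1. With array weights the calls took in 11.1% of members for bound day 0 over unbound day 0, 11.1% for bound day 5 over unbound day 5 and 22.2% for unbound day 5 over unbound day 0, against 25.5%, 35.8% and 31.3% of all genes. With only the groups of the contrast, all genes went from 10.4% to 25.2% for unbound day 5 over unbound day 0, and members from 6.67% to 13.3%. For bound day 2 over bound day 0 all genes went from 9.25% to 1.46%, and members from 2.22% to 0%. Under median centring members went from 0% to 11.1% for bound day 5 over unbound day 5, and all genes from 14.1% to 14%. Only the groups of a contrast means fewer arrays in the fit, and the cause of these changes was not tested for any setting.

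Leaving out 1 array at a time gave 0 to 1 calls for bound day 0 over unbound day 0, 1 to 3 for bound day 2 over bound day 0, 4 to 8 for bound day 5 over bound day 0, 0 to 1 for bound day 5 over bound day 2 and 1 to 3 for unbound day 5 over unbound day 0. It gave 0 throughout for bound day 5 over unbound day 5 and for the change in enrichment. The balance of immunoproteasome over constitutive genes kept its direction in every alternative run. It moved by more than the spread of the arrays to -0.66 for bound day 5 over unbound day 5 with arrays centred on their medians. With the mean of probe sets it moved to -0.11 for bound day 0 over unbound day 0, 0.37 for bound day 2 over bound day 0 and 0.46 for bound day 5 over bound day 0. Leaving out an array gave -0.35 to -0.20, -0.53 to -0.41, 0.44 to 0.55, 0.58 to 0.69, 0.08 to 0.20 and 0.76 to 0.92 for bound over unbound on day 0 and on day 5, bound day 2 over 0, bound day 5 over 0, bound day 5 over 2 and unbound day 5 over 0. Centring on array medians moved the median of all genes to 0.41 for bound day 5 over unbound day 5, 0.53 for the change in enrichment and 0.30 for bound day 5 over bound day 2, with members at 0.88, 1.09 and 0.39. Of the values of single named genes under the other settings, 868 kept their side of the threshold, 62 lost their call, 7 gained one and 1 reversed. Direction was compared only where a gene passed in the reported fit or in the alternative. No paired analysis was possible because the labels give each array a number of its own that no 2 groups share. Dim probe sets set the limit of depth: 44 of 45 genes were read from one above the negative controls on all arrays.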
